A study of Sus scrofa with 12 samples.

Results

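Solute carriers are membrane proteins that move small molecules and ions across the plasma membrane and the membranes of organelles, and their mRNAs were followed here from cultured mesenchymal stromal/stem cells (MSCs) into the extracellular vesicles (EVs) that the cells released. A gene was counted as a solute carrier when its symbol read SLC, a family number, the letter A or O, and a member number. Of the 13363 distinct symbols in the deposited mRNA table, 272 met this rule. Where a symbol had more than 1 entry in the table, which was so for 72 of the 272, the entry with the most reads stood for the gene.

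The families are numbered by similarity of sequence and carry very different substrates. Amino acid carriers work at the cell surface and in lysosomes, often as pairs of a transporting light chain and the heavy chain SLC3A2. SLC2 proteins let sugars cross membranes down their gradients, and SLC12 and SLC4 proteins couple the movement of inorganic ions. Most SLC25 proteins exchange nucleotides, phosphate and metabolites across the inner mitochondrial membrane. SLC30 and SLC39 proteins move zinc out of and into the cytosol. In stromal cells such carriers set the supply of glutamine, cystine and glucose and the export of lactate.

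Both groups came from the same 3 female domestic pigs aged 3 months, which received no treatment named in the labels. MSCs were grown from collagenase-digested abdominal fat in medium with platelet lysate and used at passage 3, and EVs were pelleted from their supernatants by ultracentrifugation. Each pig gave 1 MSC and 1 EV mRNA library, so every comparison was of 3 EV with 3 MSC libraries, numbered here by pig. The cells are primary cultures and not clones, and an EV pellet holds vesicles of several sizes. With bulk libraries, fewer vesicles or cells carrying an mRNA and fewer copies in each of them cannot be told apart.

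The libraries held 10429085 to 12276855 reads on genes, of which the 272 entries took 0.536% to 0.813%. Of the 4 MSC markers, CD44, NT5E and ENG were read in every library and THY1 was listed at 0 in all 6. The summed level of these markers was 439 to 1085 CPM (counts scaled to the size of the library) in MSCs and 499.8 to 613 in EVs. Endothelial markers summed to 9.67 to 16.7 CPM in MSCs and 1.64 to 6.59 in EVs. Nearly all of this was PECAM1, since KDR had at most 1 read in a library and CDH5 has no entry. PECAM1 was lower in EVs by 1.71 on the log2 scale (edgeR, unadjusted p = 0.0147). Myeloid markers summed to 48.7 to 51.2 CPM in MSCs and 45.3 to 64.0 in EVs. Most of this was CD14, at 44.9 to 46.6 CPM in MSCs and 42.1 to 60.2 in EVs, while PTPRC, ITGAM and CSF1R stayed at or under 0.848 CPM. Red cell and platelet markers were listed at 0, and adipocyte markers stayed at or under 0.469 CPM. The part of endothelial RNA in the carrier differences was not tested.

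Of the 272 solute carriers, 208 had at least 1 read in the 6 libraries and 64 were listed at 0. The rule also took in 3 genes that are not carriers, SLC4A1AP, SLC9A3R1 and SLC9A3R2, of which SLC4A1AP was tested, so the substrate classes hold 269. Among those listed at 0 were SLC25A5, an ADP/ATP carrier, SLC25A1, the mitochondrial citrate carrier, and SLC16A1, a lactate carrier. Such zeros cannot be read as silence, since ATF4, which most cells use, was also listed at 0. Of the 64, 43 (67.2%) shared at least 90% of their span with another entry of the table, against 46 of the 208 with reads (22.1%). All 9 members whose entry lies on a chromosome spelled X, without the prefix chr, were listed at 0. After edgeR's filter on low counts 141 members could be tested, and the 67 that were read but not tested had at most 81 reads over all libraries.

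A few entries made up a large part of the summed level. Levels between genes are given here as RPKM, the reads scaled to gene length and to the size of the library. The 10 members with the highest mean RPKM took 44.6% to 63.2% of the summed RPKM of all members. They include the SLC2A2 entry on the mitochondrial chromosome, which gives no level of a carrier. That entry took 3.59% to 8.46% in MSCs and 14.0% to 20.2% in EVs. SLC25A6, an ADP/ATP carrier of the inner mitochondrial membrane, had the highest mean over the 6 libraries, with 145 ± 64.1 RPKM in MSCs and 82.4 ± 4.06 in EVs (SD, n = 3). Next among nuclear genes came SLC44A2, a choline carrier, with 50.4 ± 32 RPKM in MSCs and 41.4 ± 8.99 in EVs, and SLC3A2, the amino acid carrier heavy chain, with 44.0 ± 27.4 and 39.7 ± 7.75. These neighbours in the order did not differ beyond their spread. SLC1A5, which takes up glutamine, followed with 39.8 ± 28.3 RPKM in MSCs and 16.4 ± 7.90 in EVs. SLC39A1, a zinc importer of the cell surface, was at 30.6 ± 3.90 and 23.5 ± 2.78, and SLC38A10, an amino acid carrier, at 29.1 ± 7.71 and 21.7 ± 4.04. SLC25A3, which brings phosphate into mitochondria, SLC16A3, which exports lactate, and SLC22A17, a receptor for lipocalin, closed the list at means of 23.9, 21.2 and 18.5 RPKM over the 6 libraries.

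**Figure D1:**
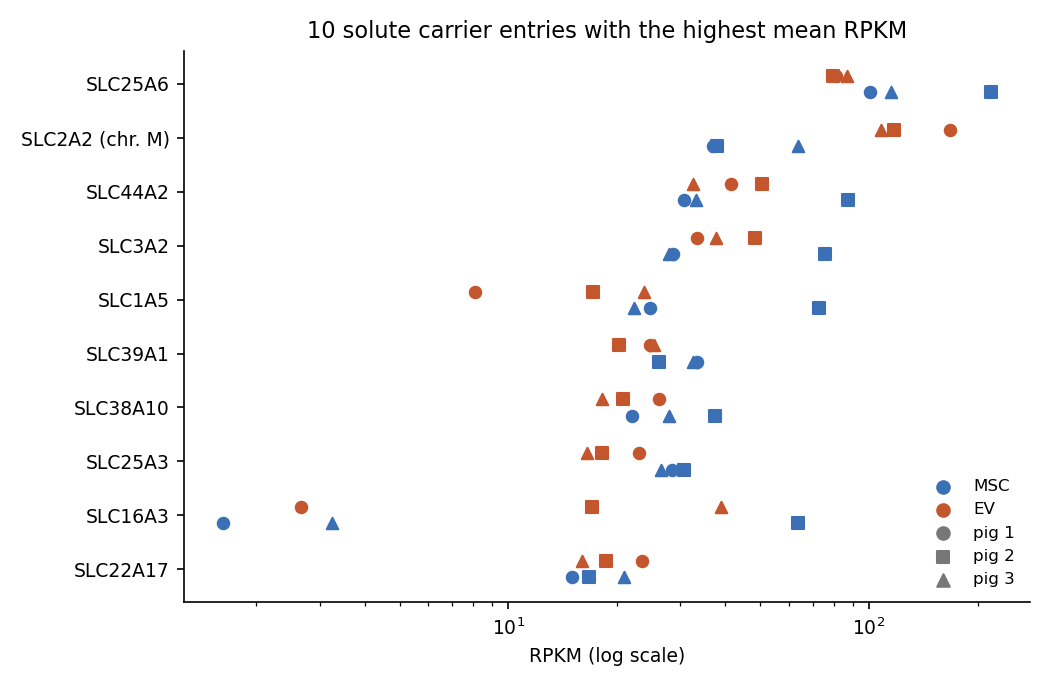
RPKM (log scale) of the 10 solute carrier entries with the highest mean RPKM, 1 point per library, blue for MSCs and orange for EVs, with circles, squares and triangles for pigs 1, 2 and 3. SLC25A6 had the highest mean, with libraries at 79.3 to 218 RPKM. The MSC library of pig 2 stood to the right of the other MSC libraries for SLC25A6, SLC44A2, SLC3A2, SLC1A5 and SLC16A3.

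The summed RPKM of all members was 722, 1054 and 749 in the MSC libraries of pigs 1, 2 and 3, and 831, 835 and 738 in their EV libraries. The MSC library of pig 2 was highest and the groups overlapped. The difference on the log2 scale was -0.05 (two-sided exact permutation test, unpaired, p = 0.9, with 0.1 the smallest p that 3 against 3 unpaired libraries allow). These sums include the SLC2A2 entry on the mitochondrial chromosome. Without it they were 685, 1016 and 685 in MSCs and 663, 718 and 630 in EVs. The difference was then -0.22 (exact permutation p = 0.4), and the groups still overlapped.

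Across genes, carrier mRNAs were about as often higher as lower in EVs. A member was counted as changed when its fold change exceeded 2 with an unadjusted p-value under 0.05 in edgeR's quasi-likelihood test over the whole table. The study used the same thresholds with another test. By this rule 6 of 141 tested members (4.26%) were higher in EVs, where 5.55% of all 12392 tested entries were, and 3 (2.13%) were lower, where 3.57% of all entries were. The 6 include the SLC2A2 entry on the mitochondrial chromosome, without which 5 of 140 (3.57%) were higher. The share of changed members was thus near or under that of the table in both directions. With Benjamini-Hochberg adjustment over all entries, 0 members passed in edgeR (0.0% of all entries in either direction). An unadjusted p under 0.05 in edgeR was held by 21 members (14.9%), against 16.0% of all entries. After adjustment DESeq2 passed 4, where it passed 2.04% of all entries as higher and 1.5% as lower. They were SLC7A11 and the SLC2A2 entry on the mitochondrial chromosome as higher, and SLC20A2 and SLC25A23 as lower. The adjusted p-values of the 9 changed members in edgeR lay between 0.206 and 0.296. With the pig as a replicate block, 9 members (6.38%) were higher and 6 (4.26%) lower by the unadjusted rule, against 8.01% and 5.17% of all entries. In that fit 1 member passed the adjusted threshold, SLC7A11 (edgeR, adjusted p = 0.0444), where 0.492% of all entries passed as higher and 0.605% as lower.

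The fitted log2 fold changes of the 141 members had a median of -0.01, against -0.02 over all entries, and 121 (85.8%) stayed within 2-fold, against 84.7% of all entries. In all 3 pigs 30 members (21.3%) were higher in EVs, where 22.6% of all entries were, and 28 (19.9%) were lower, where 24.2% were. Every EV library lay above every MSC library for 18 members (12.8%, against 14.3% of all entries) and below for 14 (9.93%, against 13.6%).

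**Figure D2:**
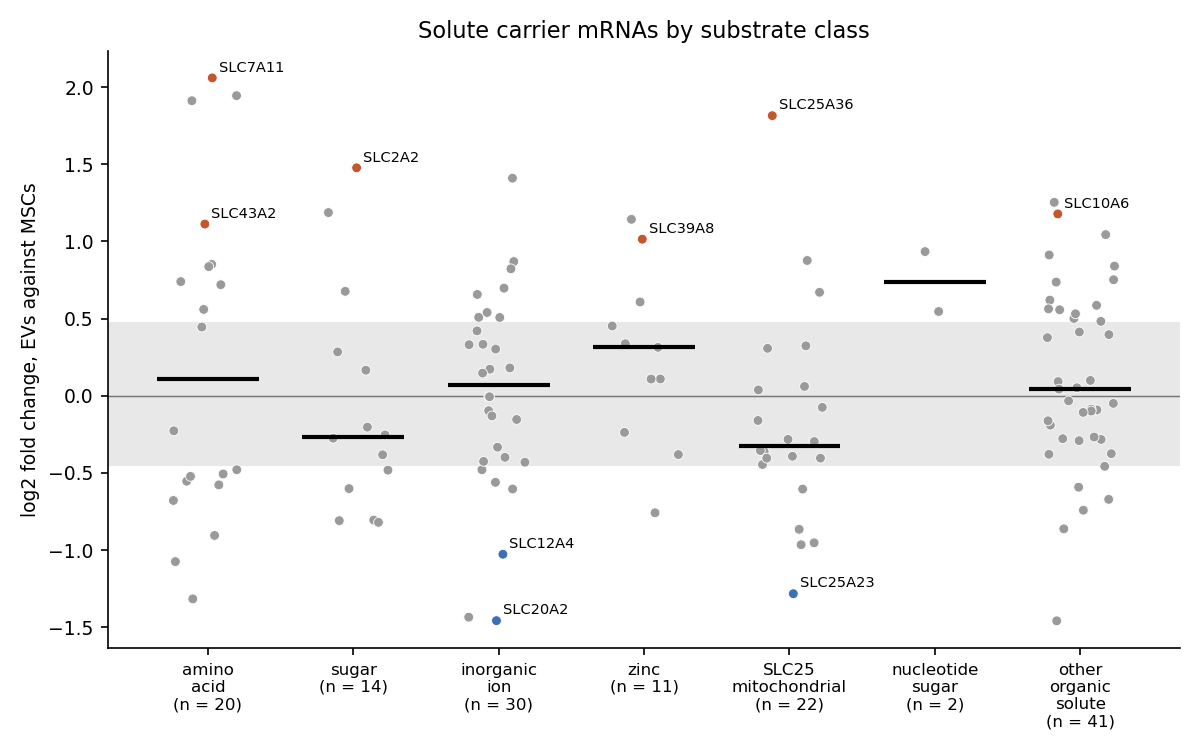
Fitted log2 fold change of EVs against MSCs for each tested solute carrier, by substrate class, with black bars at the class medians and a grey band for the middle 50% of all tested entries. Orange points were higher and blue points lower in EVs by more than 2-fold with an unadjusted p under 0.05. The 6 higher members fell in 5 classes, led by SLC7A11 at 2.06, and the 3 lower ones were SLC20A2, SLC25A23 and SLC12A4. The higher point of the sugar class is the SLC2A2 entry on the mitochondrial chromosome, which gives no level of a carrier.

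Amino acid carriers held the member with the highest fold change. Of 42 members 20 were tested, and 14 of them (70%) stayed within 2-fold, against 84.7% of all entries. Of the 20 tested, 2 were higher (10%, against 5.55% of all entries) and 0 were lower (against 3.57%). Their median log2 fold change was 0.11, but it was -0.22 without the filter on low counts and -0.51 without MSC replicate 1, so the class had no stable direction. SLC7A11 is the transporting chain of the cystine-glutamate exchanger xCT, which feeds glutathione synthesis. Its entry ENSSSCG00000022649 lies on the unplaced scaffold GL892269-1 of the pig build susScr3, from 27389 to 45554 on the minus strand, with 716 bases of counted exons. The MSC libraries of pigs 1, 2 and 3 held 56, 37 and 42 reads of it, and their EV libraries held 137, 275 and 146. The EV libraries all lay above the MSC libraries. Normalised levels were 3.81 ± 0.453 CPM in MSCs and 15.9 ± 5.06 in EVs (SD, n = 3), a log2 fold change of 2.06 with a standard error of 0.345, or 4.17-fold (edgeR, unadjusted p = 0.000402, adjusted p = 0.206). Leaving out any 1 library gave log2 fold changes of 1.80 to 2.25, with an unadjusted p under 0.05 in 6 of 6 such fits. The heavy chain that pairs with it, SLC3A2, was read 2387, 6224 and 2289 times in MSCs and 2580, 4035 and 2962 times in EVs, with overlapping groups (log2 fold change -0.23, edgeR, unadjusted p = 0.650).

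SLC43A2, which carries large neutral amino acids by facilitated diffusion, was the other higher member. Its entry ENSSSCG00000024108 lies on chromosome 12 from 49681830 to 49723909. Reads were 286, 524 and 331 in MSCs and 825, 1327 and 431 in EVs, so that it was higher in the EVs of each pig while EV replicate 3 stayed below MSC replicate 2. This was a log2 fold change of 1.11 (edgeR, unadjusted p = 0.0302), and the call was kept in 2 of the 6 fits that left out a library. It was 0.88, 0.99 and 1.14 without MSC replicates 1 and 3 and EV replicate 1, and 0.75 without EV replicate 2, with unadjusted p-values from edgeR of 0.0592 to 0.133.

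Several amino acid carriers outside the thresholds had EV libraries wholly above the MSC libraries, and they were picked out after their values were seen. These were SLC38A2, a sodium-coupled carrier of small neutral amino acids, SLC36A4, a carrier of proline and tryptophan, SLC16A10, a carrier of aromatic amino acids, and SLC38A9, a lysosomal carrier that senses arginine. Their log2 fold changes were 0.74, 0.84, 0.85 and 0.56. With SLC7A11 they made 5 of 20 tested amino acid carriers (25%) with EVs wholly above, against 14.3% of all entries, and 0 of 20 had EVs wholly below. With the pig as a replicate block SLC6A19, a neutral amino acid carrier with 0 to 30 reads a library, passed as higher (log2 fold change 2.50, edgeR, unadjusted p = 0.0258).

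SLC1A5, SLC38A5 and SLC38A1, which carry glutamine, varied widely between pigs and did not pass the thresholds. SLC1A5, on chromosome 6 from 47968136 to 48032120, was read 3074, 8880 and 2726 times in MSCs and 938, 2141 and 2801 times in EVs. Pigs 1 and 2 had lower EV than MSC levels and pig 3 did not (log2 fold change -1.32, edgeR, unadjusted p = 0.0774). It was -0.41 without MSC replicate 2 and -1.84 without EV replicate 3, and with the pig as a replicate block it passed the thresholds (log2 fold change -1.24, edgeR, unadjusted p = 0.0308). Its span lies inside an entry for GALNS that covers 53.6 Mb of the same chromosome with 14423 reads. SLC38A5, a glutamine carrier named after its values were seen, was read 1303, 2226 and 1199 times in MSCs and 388, 487 and 1252 times in EVs, with the same order of pigs (log2 fold change -1.07, edgeR, unadjusted p = 0.1, and 0.0262 with the replicate block). SLC38A1, which also takes up glutamine, went the other way through 1 library, being read 159, 82 and 113 times in MSCs and 80, 234 and 888 times in EVs. Its log2 fold change of 1.94 (edgeR, unadjusted p = 0.0511) was 0.33 without EV replicate 3.

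**Figure D3:**
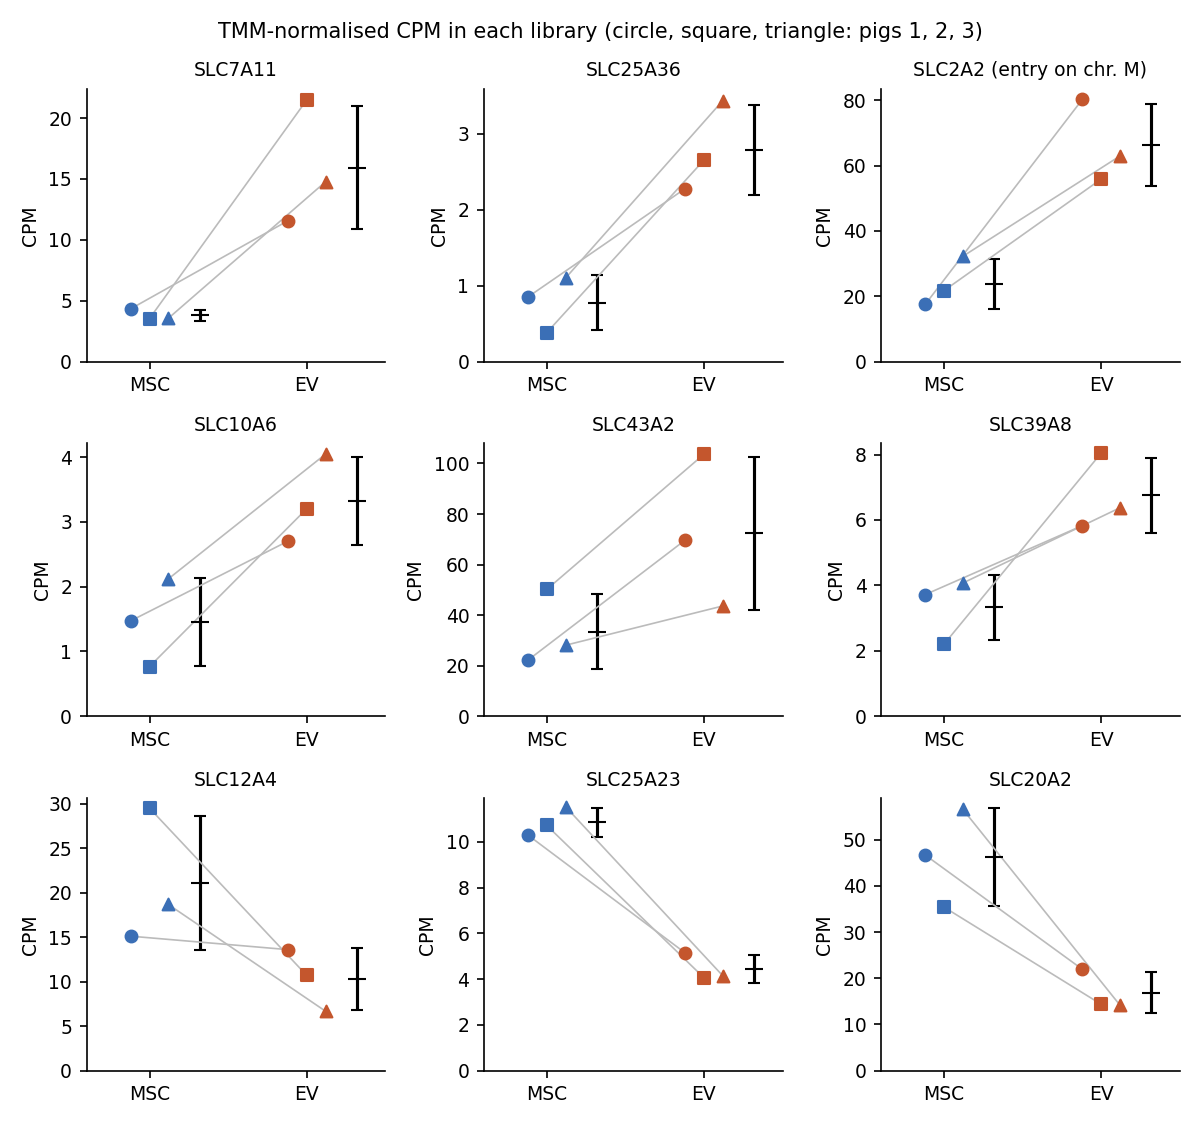
TMM-normalised CPM of the 9 changed members in each library, with a circle, square and triangle for pigs 1, 2 and 3, grey lines joining the libraries of a pig, and black bars for the mean ± SD of 3 libraries. SLC7A11 lay at 3.54 to 4.34 CPM in MSCs and 11.6 to 21.5 in EVs, and for SLC43A2 alone of the 9 the groups overlapped.

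Inorganic ion carriers gave 2 of the 3 lower members and 0 higher ones. Of those tested 6.67% were thus lower, against 3.57% of all entries, and 0 were higher, against 5.55%. Of 49 members 30 were tested, with a median log2 fold change of 0.07 that lay between -0.0038 and 0.0951 over the alternatives that kept all libraries and between -0.15 and 0.17 when a library was left out, so its sign was not stable. With the pig as a replicate block SLC4A11, a member of the bicarbonate carrier family, passed as well (log2 fold change -1.46, edgeR, unadjusted p = 0.0314), though it was higher in the EVs of 1 pig. SLC20A2 is a sodium-phosphate cotransporter of the cell surface, and its entry ENSSSCG00000007027 lies on chromosome 17 from 12887493 to 12901718 on the minus strand. It was read 603, 370 and 667 times in MSCs and 260, 184 and 140 times in EVs. Every EV library was below every MSC library. Levels were 46.2 ± 10.6 CPM in MSCs and 16.8 ± 4.44 in EVs (SD, n = 3), a log2 fold change of -1.46 with a standard error of 0.300, or 2.75-fold lower (edgeR, unadjusted p = 0.00146, adjusted p = 0.206). It kept an unadjusted p under 0.05 in 6 of 6 fits that left out a library, with log2 fold changes of -1.70 to -1.29.

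SLC12A4, the potassium-chloride cotransporter KCC1 of cell volume control, was the second lower ion carrier. It was read 195, 308 and 220 times in MSCs and 161, 137 and 66 times in EVs, with every EV library below every MSC library. Its log2 fold change was -1.03 (edgeR, unadjusted p = 0.0299). The call was lost without MSC replicate 2 (-0.71), EV replicate 2 (-1.06) or EV replicate 3 (-0.80). The entry on scaffold GL896204-1, from 84940 to 91372, shares 99.2% of its span with a further SLC12A4 entry that took 382 reads, and with the entries summed the log2 fold change was -0.79. A call on this gene is therefore uncertain.

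SLC4A4 and SLC9A9 stood opposite within the class, though under the fold threshold and named after their values were seen. SLC4A4, a sodium-bicarbonate cotransporter, was at 17.8 ± 4.85 CPM in MSCs and 32.6 ± 10.3 in EVs (SD, n = 3), and SLC9A9, a sodium-proton exchanger of endosomes, at 6.37 ± 0.161 and 10.3 ± 1.39. In both, the EV libraries all lay above the MSC libraries (edgeR, unadjusted p = 0.0303 and 0.0411). These p-values rose when some libraries were left out. The unadjusted p from edgeR was 0.130 for SLC4A4 without EV replicate 2 and 0.118 for SLC9A9 without EV replicate 3. SLC4A2, an anion exchanger, and SLC26A11, a sulfate carrier, had the highest RPKM of the class, with log2 fold changes of -0.33 and -0.43 that did not pass (edgeR, unadjusted p = 0.250 and 0.394).

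Carriers of the SLC25 family, classed here as mitochondrial, leaned toward lower levels in EVs. The class was set by family and not by the known location of each protein. Of 35 SLC25 members 22 were tested, 15 of them (68.2%) with negative fold changes, against 50.9% of all entries. The median log2 fold change of the class was -0.33, against -0.02 over all entries. The class median was -0.11, -0.46 and -0.26 in pigs 1, 2 and 3, and it stayed between -0.41 and -0.16 over all alternatives. By the thresholds 1 member was higher and 1 was lower (4.55% each), against 5.55% and 3.57% of all entries. For 6 of 22 members (27.3%) every EV library lay below every MSC library, where 13.6% of all entries did, and 9 of 22 (40.9%) were lower in all 3 pigs, where 24.2% of all entries were.

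The lower member was SLC25A23, a calcium-dependent carrier of ATP-magnesium and phosphate. Its entry lies on chromosome 2 from 72958959 to 73076957 on the minus strand. A further SLC25A23 entry, with 8 reads, shares 98.0% of its own span with this one. It was read 133, 112 and 136 times in MSCs and 61, 52 and 41 times in EVs. The 3 libraries of each group lay close together, at 10.9 ± 0.628 CPM in MSCs and 4.45 ± 0.605 in EVs (SD, n = 3). They differed by a log2 fold change of -1.28 with a standard error of 0.294, or 2.43-fold lower (edgeR, unadjusted p = 0.00272, adjusted p = 0.219), and 6 of 6 fits that left out a library kept an unadjusted p under 0.05. Among the alternatives that kept all libraries the log2 fold change lay between -1.31 and -0.72, the latter under the fold threshold.

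The carriers of adenine nucleotides and phosphate, SLC25A6, SLC25A4 and SLC25A3, had negative fold changes under 2-fold and did not pass the thresholds. SLC25A6 was read 3906, 8313 and 4373 times in MSCs and 2906, 3069 and 3176 times in EVs. It was lower in the EVs of each pig, most of all in pig 2, with a log2 fold change of -0.87 (edgeR, unadjusted p = 0.0637) that was -0.32 without MSC replicate 2. SLC25A4, the ADP/ATP carrier best known from muscle, was read 907, 819 and 617 times in MSCs and 477, 458 and 274 times in EVs. Here every EV library was below every MSC library (log2 fold change -0.95, edgeR, unadjusted p = 0.00695), as it was for SLC25A3, read 1700, 1809 and 1556 times in MSCs and 1277, 1087 and 934 times in EVs. The log2 fold change of SLC25A3 was -0.60 (edgeR, unadjusted p = 0.0311, and 0.0680 with the replicate block). SLC25A17, SLC25A31 and SLC25A38 completed the members with EVs wholly below, at log2 fold changes of -0.36, -0.39 and -0.40. All of these except SLC25A6 and SLC25A3 were named after their values were seen.

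The summed RPKM of the class was 223, 326 and 226 in MSCs and 188, 174 and 164 in EVs, or 258 ± 58.4 against 175 ± 11.7 (SD, n = 3). All EV libraries were below all MSC libraries. The exact permutation p was 0.1, the smallest that this unpaired test of 3 against 3 libraries allows. Without SLC25A6, a calculation added after its level was seen, the sums were 122, 107 and 111 RPKM in MSCs and 107, 94.3 and 77.3 in EVs. The groups then barely parted, with the lowest MSC sum at 107.4 and the highest EV sum at 106.7. RPKM are not TMM-normalised, and over all entries they summed to 155035, 165904 and 162093 in MSCs and 137746, 132887 and 175576 in EVs. The class was not compared as a share of these totals.

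Against this lean stood SLC25A36, a carrier of pyrimidine nucleotides into mitochondria, on chromosome 13 from 89592343 to 89630429. It was read 11, 4 and 13 times in MSCs and 27, 34 and 34 times in EVs, every EV library above every MSC library. With 0.779 ± 0.365 CPM in MSCs and 2.79 ± 0.592 in EVs (SD, n = 3) it was among the lowest members tested, and counting error weighs heavily on it. The log2 fold change was 1.82 with a standard error of 0.503 (edgeR, unadjusted p = 0.00749) and between 1.5 and 2.13 without any 1 library. SLC25A46, an outer-membrane protein of mitochondrial shape, also had EVs wholly above, at 39.2 ± 16.3 and 72.0 ± 13.2 CPM, a log2 fold change of 0.88 (edgeR, unadjusted p = 0.0448), and was named after its values were seen.

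**Figure D4:**
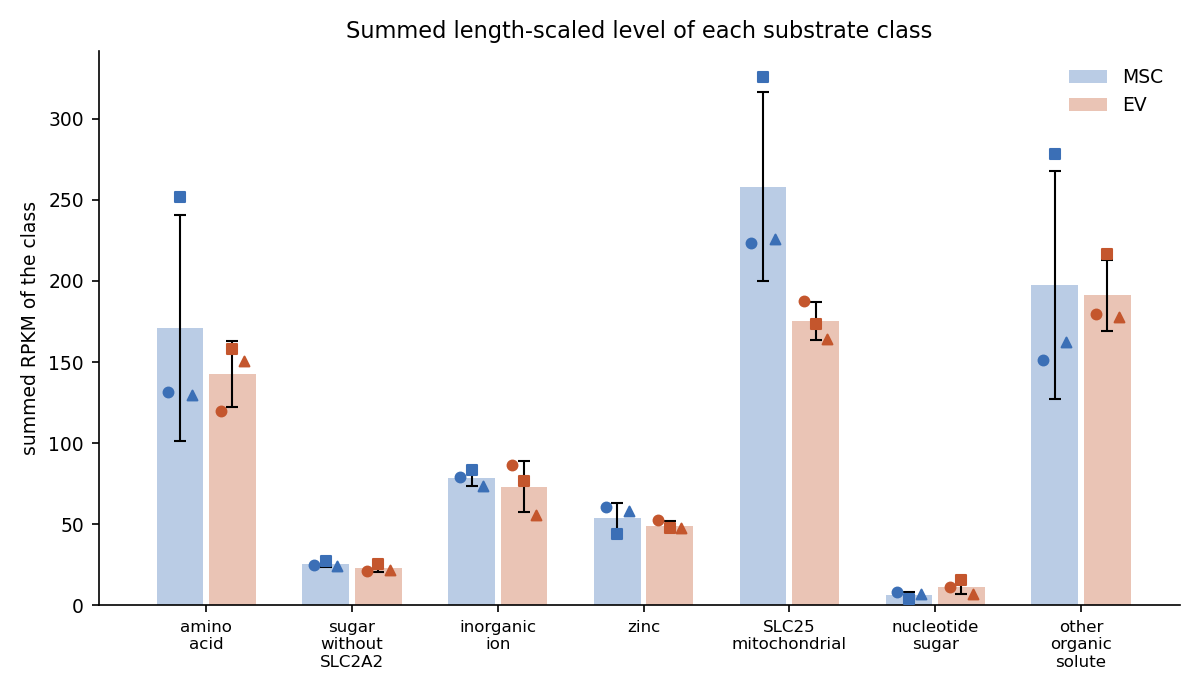
Summed RPKM of each substrate class in each library (points, with circle, square and triangle for pigs 1, 2 and 3) and the mean ± SD of 3 libraries (bars), with the SLC2A2 entry left out of the sugar class. SLC25 was the one class with more than 2 tested members in which all 3 EV libraries (164 to 188) lay below all 3 MSC libraries (223 to 326).

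Of 19 zinc carriers 11 were tested, 8 of them (72.7%) with positive fold changes, against 49.1% of all entries. By the thresholds 1 of the 11 (9.09%) was higher, against 5.55% of all entries. The class median was 0.31, and -0.04, 0.59 and 0.23 in pigs 1, 2 and 3. It was 0.08 without MSC replicate 2, 0.09 without EV replicate 3 and 0.16 with limma on log2(RPKM + 1). SLC39A8, which imports zinc and manganese, was read 48, 23 and 48 times in MSCs and 69, 103 and 63 times in EVs. The EV libraries all lay above the MSC libraries, with a log2 fold change of 1.01 (edgeR, unadjusted p = 0.0278). Its entry ENSSSCG00000009169 lies on chromosome 8 from 127755061 to 127826415 on the minus strand. Its log2 fold change was 0.79 without MSC replicate 2 and 0.89 without EV replicate 2, under the fold threshold, and without MSC replicate 1 the unadjusted p from edgeR was 0.0507.

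The 4 tested zinc exporters of the SLC30 family, SLC30A1, SLC30A4, SLC30A6 and SLC30A7, had log2 fold changes of 1.14, 0.61, 0.45 and 0.34, none with an unadjusted p under 0.05 in edgeR. MSC replicate 2 held 1 read each of SLC30A1 and SLC30A4, against 28 and 26 in MSC replicate 1, so the difference in pig 2 rests on that library. The zinc importer with the highest level went the other way. SLC39A1 was read 3222, 2489 and 3086 times in MSCs and 2224, 1963 and 2318 times in EVs, and after normalisation every EV library was below every MSC library (log2 fold change -0.38, edgeR, unadjusted p = 0.159). SLC39A13, a zinc carrier of the early secretory pathway, was at 80.0 ± 24.3 CPM in MSCs and 67.8 ± 3.39 in EVs (SD, n = 3).

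Among sugar carriers 14 of 23 members were tested, and the single changed one was not a sugar carrier transcript by its position. The most-read SLC2A2 entry lies on the mitochondrial chromosome (chromosome M, from 2273 to 2410 on the plus strand) and is 138 bases long, whereas SLC2A2 encodes the glucose carrier GLUT2 in the nucleus. Both SLC2A2 entries on chromosome 13, from 118535754 to 118557256 and from 118535743 to 118557269, were listed at 0 and share their spans. The mitochondrial entry was read 226, 227 and 380 times in MSCs and 950, 715 and 622 times in EVs. The EV libraries all lay above the MSC libraries, with a log2 fold change of 1.48 (edgeR, unadjusted p = 0.00137). It was the one entry of the table on a chromosome spelled chrM, while the 37 entries on MT, among them ENSSSCG00000018063 from 2274 to 3844, had 0 reads. These reads were assigned to the mitochondrial chromosome and give no level of GLUT2. The entry took 3.59% to 8.46% of the summed RPKM of all members in MSCs and 14.0% to 20.2% in EVs. Without it 5 members were higher and 3 lower of 140 tested, and the difference of summed RPKM was -0.22 on the log2 scale (exact permutation p = 0.4).

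Without that entry 0 of 13 tested sugar carriers passed the thresholds in either direction, and their median log2 fold change was -0.27. With the pig as a replicate block 1 of them passed, SLC2A13, a myo-inositol carrier (log2 fold change 1.41, edgeR, unadjusted p = 0.0344), though its EV level was higher in 2 of 3 pigs. SLC2A8, the intracellular glucose carrier GLUT8, was at 29.2 ± 5.06 CPM in MSCs and 16.7 ± 3.85 in EVs (SD, n = 3), and SLC37A1, a glucose-6-phosphate exchanger, at 32.9 ± 12.8 and 18.8 ± 2.61. In both, named after their values were seen, every EV library was below every MSC library (log2 fold change -0.81 each, edgeR, unadjusted p = 0.0214 and 0.0388). SLC50A1, a sugar carrier of the Golgi, overlapped between groups at 26.7 ± 12.4 and 20.5 ± 6.67 CPM. The table has no entry under the symbols SLC2A1 and SLC2A3, the main glucose carriers of most cells, which were not analysed here.

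Nucleotide sugar carriers feed glycosylation in the Golgi, and 2 of their 5 members were tested. SLC35A1, which carries CMP-sialic acid, was read 404, 211 and 330 times in MSCs and 558, 905 and 337 times in EVs, and SLC35A5 was at 35.9 ± 15.3 CPM in MSCs and 52.4 ± 4.45 in EVs (SD, n = 3). After normalisation the EV libraries lay above the MSC libraries for both. The log2 fold change of SLC35A1 was 0.93 (edgeR, unadjusted p = 0.0235), under the fold threshold, and that of SLC35A5 was 0.55 (edgeR, unadjusted p = 0.167).

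Carriers of other organic solutes numbered 96, of which 41 were tested. Within 2-fold stayed 37 (90.2%, against 84.7% of all entries). Of the 41, 1 was higher (2.44%, against 5.55% of all entries) and 0 were lower (against 3.57%). The higher one was SLC10A6, which takes up sulfated steroids, on chromosome 8 from 141308462 to 141333319. It was read 19, 8 and 25 times in MSCs and 32, 41 and 40 times in EVs, a log2 fold change of 1.18 (edgeR, unadjusted p = 0.0407). Although its EV libraries all lay above the MSC libraries, the call was kept in 1 of 6 fits that left out a library, the one without MSC replicate 3. Unadjusted p-values in the other fits, each without 1 of MSC replicates 1 and 2 or EV replicates 1, 2 and 3, were 0.0582 to 0.115 in edgeR, with log2 fold changes of 0.88 to 1.31. SLC29A1, the nucleoside carrier ENT1, stayed under 2-fold and was named after its values were seen. It was read 1041, 1041 and 874 times in MSCs and 560, 572 and 474 times in EVs, or 84.8 ± 13.3 against 46.6 ± 1.73 CPM (SD, n = 3). The EVs held 1.82-fold less (log2 fold change -0.86, edgeR, unadjusted p = 0.00442), with log2 fold changes of -0.96 to -0.73 without any 1 library.

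The carriers of this class with the highest levels did not differ beyond their spread. SLC44A2 was read 3618, 10117 and 3828 times in MSCs and 4527, 5929 and 3600 times in EVs, with the MSC library of pig 2 alone above the EVs of all pigs. Its log2 fold change was -0.38 and turned to 0.42 without that library. SLC22A23, an organic ion carrier of the SLC22 family, passed as higher with the pig as a replicate block alone (log2 fold change 1.26, edgeR, unadjusted p = 0.0470). SLC22A17 was at 176 ± 35.2 CPM in MSCs and 189 ± 23.5 in EVs (SD, n = 3).

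SLC16A3 encodes the lactate exporter MCT4 of glycolytic and oxygen-poor cells and varied more between pigs than any other member with 20 reads or more in each library of a group. The MSC libraries of pigs 1, 2 and 3 held 158, 6115 and 311 reads of it, and the EV libraries 242, 1667 and 3579. MSC replicate 2 and EV replicate 3 were far above the rest, so the highest MSC and the highest EV library came from different pigs. The highest normalised level was 47.8 times the lowest within MSCs and 17.7 times within EVs. The log2 fold change of -0.28 (edgeR, unadjusted p = 0.848) became 3.15 without MSC replicate 2 and 0.76 with the pig as a replicate block, so no direction can be given. The summed level of 17 glycolysis genes had its highest values in the same libraries, with 9520, 21286 and 9604 CPM in MSCs and 8582, 9335 and 14437 in EVs. Of these genes 12 were tested, and 0 were changed, where 5.55% of all entries were higher and 3.57% lower. The part of a shared state of these cultures in the SLC16A3 levels was not tested.

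Of 111 members with 20 reads or more in each MSC library, 17 (15.3%) varied more than 3-fold among the 3 pigs, against 13.6% of all entries, and MSC replicate 2 was the highest library for 9 of the 17 and the lowest for 8. In EVs 15 of 111 members (13.5%) varied more than 3-fold, against 7.76% of all entries, and EV replicate 3 was the highest library for 8 and the lowest for 6. MSC replicate 2 and EV replicate 3 thus stood at an extreme for 17 of 17 and 14 of 15 of the members that varied. Among 3 libraries, however, 2 are always at an extreme. MSC replicate 1 was the highest for 6 of the 17 and the lowest for 8. EV replicate 1 was the highest for 5 of the 15 and the lowest for 7. These places were not counted over all entries.

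**Figure D5:**
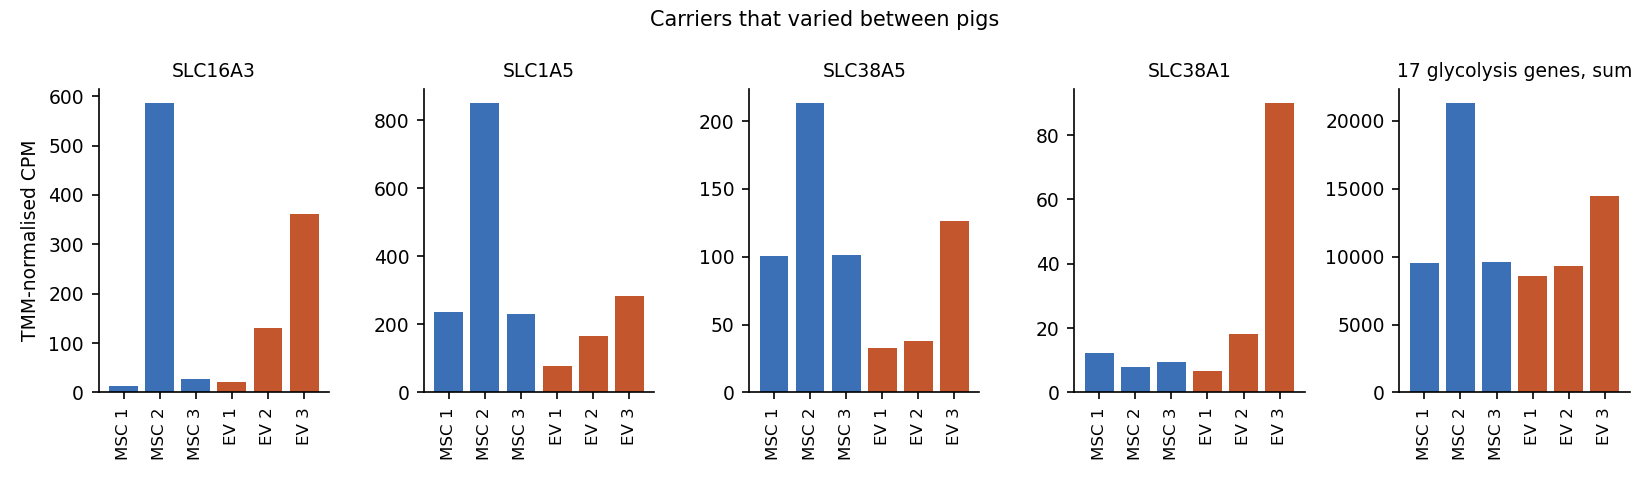
TMM-normalised CPM of SLC16A3, SLC1A5, SLC38A5 and SLC38A1 and of 17 glycolysis genes summed, 1 bar per library, blue for MSCs and orange for EVs. SLC16A3 reached 585 CPM in MSC replicate 2 and 362 in EV replicate 3, the libraries in which the glycolysis sum was also highest within its group, at 21286 and 14437 CPM.

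Genes that work with solute carriers were read from a list of their own. By the same thresholds 5.55% of all 12392 tested entries were higher in EVs and 3.57% lower. EMB, a chaperone that brings lactate carriers to the cell surface, was read 34, 19 and 56 times in MSCs and 45, 119 and 108 times in EVs and was higher in the EVs of each pig (log2 fold change 1.38, edgeR, unadjusted p = 0.0340). BSG, the chaperone of SLC16A3, had a log2 fold change of -0.58 that did not pass (edgeR, unadjusted p = 0.157). Of 12 tested carriers without an SLC symbol 1 was changed, the lysosomal and melanosomal protein MFSD12, which was lower with a log2 fold change of -1.29 (edgeR, unadjusted p = 0.00814). Among amino acid response genes, which are induced when amino acids run short, 6 were tested and 0 were changed, 5 of them with negative fold changes. Of the kinases that regulate SLC12 carriers 3 were tested and 0 were changed. Of 8 sodium pump subunits 1 could be tested and was not changed, and of 4 zinc response genes 0 could be tested.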

How the data were processed

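Of the 12 libraries, the 6 mRNA libraries were used. The authors aligned reads with TopHat to the pig build susScr3 and counted them on genes, with featureCounts per the study's methods and HTSeq per the labels. Whether the counting used strand is not given in the sources used here. The deposited table holds raw counts, gene length and RPKM for 29661 entries, of which 3 with shifted columns were left out. The small-RNA tables of counts and CPM were not used. Symbols came from the table or, for 215 of the 272 solute carriers, from the Ensembl identifiers, and each symbol was represented by its most-read entry. No nucleotide or protein sequence was used.

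The counts of all 29658 entries were analysed with edgeR 4.0.16 in R 4.3.3 (TMM factors of 0.852 to 1.14, filterByExpr, quasi-likelihood test, Benjamini-Hochberg adjustment over 12392 entries). CPM are TMM-normalised, and RPKM are the values the authors deposited. Summed RPKM were compared with exact permutation tests in SciPy 1.17.1, which did not use the pairing of libraries by pig. Fits were tested on simulated data. Alternatives were other scaling factors, DESeq2 1.42.0, no filter or at least 10 reads in every library of a group, limma 3.58.1 on log2(RPKM + 1) and log2(RPKM + 0.1), the pig as a replicate block, leaving out entries that share 90% of their span, summing the entries of a symbol, and leaving out each library. The labels pair the libraries by pig, and deviations from the group means correlated at 0.238, 0.377 and 0.401 within pigs and at -0.367 to -0.0331 between pigs.

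Members named were those past a fold of 2 with an unadjusted p under 0.05 and the same direction in all 3 pigs, those past the adjusted threshold with the block, the 10 with the highest mean RPKM and the 2 highest of each class. Others were named after their values were seen, and those from the lists of partner and marker genes to give their counts. The members, classes and lists were chosen with earlier results of these data known. The 6 libraries come from 3 pigs, 1 MSC and 1 EV library from each, so p-values cover the spread between 3 animals, and read counts carry no molecular identifiers.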

Additional observations from a re-analysis of the deposited data

How the results depend on the processing

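Other scaling factors and a stricter filter left each count of changed carriers within 1.5 times of 6 higher and 3 lower. The lower count was 5 with DESeq2 and 6 without the filter on low counts, and the higher count was 2 with limma on log2(RPKM + 1). With the pig as a replicate block 9 were higher and 6 lower (992 and 641 of all 12392 entries), and 1 passed the adjusted threshold, where DESeq2 passed 4. Leaving out a library gave 5 to 11 higher and 3 to 10 lower. The median of amino acid carriers was -0.22 without the filter and 0.40 without entries that share a span, and -0.51 to 0.29 when a library was left out, and that of other organic solutes was 0.0179 to 0.27. Leaving out a library moved the medians of zinc, inorganic ion and sugar carriers to 0.08 to 0.44, -0.15 to 0.17 and -0.37 to -0.08. The median of the SLC25 class stayed negative under every alternative run. Direction turned for SLC16A3 with limma on log2(RPKM + 1) (0.63), limma on log2(RPKM + 0.1) (0.78), the replicate block (0.76), and in fits that left out a library, with a lowest value of -1.47 (EV replicate 3 left out) and a highest of 3.15 (MSC replicate 2 left out), and 0.24 without EV replicate 1. It turned for SLC3A2 with limma on log2(RPKM + 0.1) (0.0015) and without MSC replicate 2 (range -0.51 to 0.55). Without that library it also turned for SLC26A11 (range -0.69 to 0.26), SLC39A13 (-0.41 to 0.0307) and SLC44A2 (-0.69 to 0.42), and SLC22A17 (-0.0563 to 0.22) turned without MSC replicate 1 and EV replicate 1 (-0.0067). The causes were not tested. Of 405 values of named carriers under an alternative, 356 kept direction and side of the threshold. Over all tested entries 688 were higher and 442 lower, against 233 and 194 with limma on log2(RPKM + 1) and 583 lower without the filter. The fit without the SLC2A2 entry was chosen after seeing the data. Of the 131 carriers that were not tested, 67 had reads but too few for the filter, and the zeros of the other 64 cannot be read as absence.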

Other observations

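Solute carriers whose symbols do not follow SLC with a family number and then the letter A or O, such as the SLC35B to SLC35G genes of the secretory pathway and the SLCO organic anion carriers, numbered 34, of which 16 could be tested. Of these 0 were higher and 0 lower by the thresholds, where 5.55% and 3.57% of all entries were. Over all entries 16.0% had an unadjusted p under 0.05 in edgeR, and of the 16 tested carriers 2 did. They were SLC35C1, the GDP-fucose carrier of the Golgi, with a log2 fold change of -0.95, and SLC35F2, with -0.99, and were named after their values were seen. SLC19A2, which takes up thiamine, was read 31, 9 and 36 times in MSCs and 6, 16 and 5 times in EVs, so that it was lower in the EVs of pigs 1 and 3 and higher in those of pig 2 (log2 fold change -1.46, edgeR, unadjusted p = 0.0529). SLC8A3, a sodium-calcium exchanger, was read 27, 79 and 42 times in MSCs and 26, 53 and 285 times in EVs, and its log2 fold change of 1.41 was -0.47 without EV replicate 3. Across the 141 tested carriers, gene length and log2 fold change had a Spearman correlation of -0.05, against 0.15 across all 12392 tested entries, and genes are not independent replicates.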
